A study of Mus musculus with 15 samples.

Results

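Long non-coding RNAs (lncRNAs) are transcripts that act without being translated. The 8 described here, Meg3, Rian, Mirg, Malat1, Neat1, Miat, Gas5 and Snhg11, were chosen by name out of 55359 genes in the matrix. The rule itself uses no measured value, but the choice was made with earlier results of these data known. All 8 were found in it under their own symbols. RNA from 15 mouse samples was sequenced after poly-A selection, 3 samples in each of 5 groups. The 46LCNEC line grew as an adherent monolayer and came from a large cell neuroendocrine carcinoma (LCNEC) raised in the lung of a QKO mouse by an adenovirus that expresses Cre from the broadly active CMV promoter. The 57SCLC line grew as floating aggregates and came from a small cell lung carcinoma (SCLC) raised in the same model with Cre under the keratin 5 (K5) promoter. QKO mice bear floxed or null alleles of 4 tumor suppressor genes, Rb1, Rbl1 and Trp53 among them, and both lines had lost them. Of the cultures, 46LCNEC_cell comprised dishes A to C at passage 17, and 57SCLC_cell comprised flasks A to C at passage 11. Allografts were subcutaneous tumors grown from these lines in immunocompetent QKO mice (46LCNEC_allo, tumors 312, 319 and 321, and 57SCLC_allo, tumors 275, 316 and 317), and Lung was normal lung of littermates CT3, CT4 and CT5. Ages were not given in the sources used here.

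Each tumor subtype is thus represented by 1 line, so line and subtype cannot be told apart. The sample titles of the cultured cells carry strings that look like dates. These differ between the lines and between replicates, and their meaning was not given in the sources used here. The replicates are dishes, flasks or tumors of the same line, or littermates, and the p-values measure the spread between such samples. Library depth ranged from 9480244 reads in tumor 275 to 44876572 reads in flask C, with a median of 26502525. The defining neuroendocrine markers (Chga, Syp, Scg3, Insm1 and Dll3) summed to between 34203 and 55032 normalized counts in the 57SCLC samples, to between 15.8 and 42.0 in the 46LCNEC samples and to between 150 and 159 in Lung, so these markers were near the bottom of the range in both 46LCNEC groups. The allografts also hold host cells. The summed leukocyte markers (Ptprc, Cd68, Csf1r, Lyz2 and Cd3e) ranged from 21223 to 46393 in 46LCNEC_allo and from 8717 to 14507 in 57SCLC_allo, against 248 to 384 in the cultured cells. In bulk RNA, fewer cells of a type and less RNA per cell cannot be told apart.

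Meg3, Rian and Mirg lie one after the other, in this order and on the same strand, in the imprinted Dlk1-Dio3 domain, where they are transcribed from the maternal chromosome while Dlk1, Rtl1 and Dio3 are transcribed from the paternal one. Rian carries C/D box small nucleolar RNAs (snoRNAs) in its introns, and the 3 transcripts host a large microRNA cluster. Malat1 is a nuclear speckle RNA and its neighbor Neat1 is the scaffold of paraspeckles, nuclear bodies that form around it. Miat, also called Gomafu, is a nuclear RNA of neurons whose UACUAAC repeats bind splicing factors. Gas5 and Snhg11 are snoRNA host genes: the snoRNAs are cut from their introns, and the spliced Gas5 RNA is known as a target of decay coupled to translation.

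On GRCm39, Meg3 spans chr12:109506877-109538165, Rian chr12:109570242-109628150 and Mirg chr12:109696198-109715898, all on the plus strand. The gap between Meg3 and Rian is 32076 bases and that between Rian and Mirg is 68047 bases. Within the 209022 bases from the start of Meg3 to the end of Mirg, the GENCODE annotation places 59 microRNA genes, 2 of them inside Meg3, 4 inside Rian and 14 inside Mirg. RefSeq hairpins (table build GRCm38.p6) were found by sequence for 57 hairpins and 106 mature microRNAs of this interval. Mature microRNAs were not measured here, since the libraries were made from poly-A selected RNA. The following mature sequences show what each host carries, with the seed, bases 2 to 8, in capitals. miR-770-5p lies in Meg3, miR-370-3p in Rian, and miR-134-5p and miR-410-3p in Mirg. miR-453 and miR-496a-5p, both in Mirg, share the seed GGUUGCC and differ after it.
mmu-miR-770-5p: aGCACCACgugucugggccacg
mmu-miR-370-3p: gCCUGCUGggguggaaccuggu
mmu-miR-134-5p: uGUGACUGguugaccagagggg
mmu-miR-410-3p: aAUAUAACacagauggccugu
mmu-miR-453: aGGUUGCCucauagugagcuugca
mmu-miR-496a-5p: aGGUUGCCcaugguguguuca

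A search of the RefSeq promoter windows, 250 bases before to 50 bases after each start, was made for TGACGTCA, the full palindromic cyclic AMP response element, which reads the same on both strands. Of 9 windows that belong to 7 of the lncRNAs, 2 held it, against 1.79% of 32851 mouse promoters. In Meg3 the element starts 57 bases before the RefSeq start, in the window chr12:109506629-109506928 (GRCm39, plus strand, RefSeq sequence). In Gas5 it starts 46 bases before the start used by its other window, at chr1:160862486-160862785 (GRCm39, plus strand, RefSeq sequence). Both windows are shown because they share these letters, in capitals, while the levels of their genes differed. The Meg3 window holds 13 CpG dinucleotides, a number reached by 37.9% of promoters, and the Gas5 window holds 19, reached by 28.1%.
Meg3 promoter: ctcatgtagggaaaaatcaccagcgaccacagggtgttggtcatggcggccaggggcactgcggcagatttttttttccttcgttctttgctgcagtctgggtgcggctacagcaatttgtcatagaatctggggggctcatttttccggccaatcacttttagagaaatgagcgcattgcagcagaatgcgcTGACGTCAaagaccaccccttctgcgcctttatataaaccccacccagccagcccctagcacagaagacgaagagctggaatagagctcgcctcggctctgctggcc
Gas5 promoter: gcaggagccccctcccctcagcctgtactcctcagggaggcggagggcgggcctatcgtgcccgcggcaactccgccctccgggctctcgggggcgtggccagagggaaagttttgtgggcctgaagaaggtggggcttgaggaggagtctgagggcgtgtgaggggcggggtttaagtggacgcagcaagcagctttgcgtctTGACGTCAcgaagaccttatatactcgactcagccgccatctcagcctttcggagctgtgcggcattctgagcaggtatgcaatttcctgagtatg

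Miat lies at chr5:112361094-112377261 on the minus strand (GRCm39). Its longest annotated transcript of lncRNA type, Miat-205 (9163 bases), holds the letters TACTAAC, the DNA form of the repeat, 6 times on its own strand. Among 32870 annotated lncRNA genes taken by their longest transcript, 1 had at least 6 copies, and that was Miat itself. Of the 19 lncRNAs at least as long, 42.1% had a copy. Neat1 had 1 copy and the other members had 0. The 152 bases at chr5:112365175-112365326 (minus strand), within 1 exon, hold 3 of the copies, in capitals.
Miat repeat region: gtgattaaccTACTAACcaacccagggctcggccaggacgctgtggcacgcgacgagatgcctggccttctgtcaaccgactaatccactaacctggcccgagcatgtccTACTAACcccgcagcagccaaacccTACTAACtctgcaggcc

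Levels are given as normalized counts, the number of reads per gene divided by the DESeq2 size factor of the sample. Groups were compared with limma, and a gene was called at an adjusted p of at most 0.01 with a fold change of at least 2. Per kilobase of annotated exon, Malat1 and Neat1 were the most abundant of the 8 in every group, with 3740 to 16487 normalized counts per kb for Malat1 and 392 to 5667 for Neat1 as group means. Miat reached 343 in 57SCLC_cell and 771 in 57SCLC_allo on this scale, Meg3 143 in 57SCLC_allo and Snhg11 239 in Lung. Rian did not exceed a mean of 10.3 normalized counts per kb, nor Mirg 7.88, in any group. The length used joined the exons of all annotated transcripts, which for Gas5 covers 4228 of the 4326 bases of the gene, introns of its spliced forms included. In 57SCLC_cell the means of Neat1 (392), Miat (343) and Gas5 (322) were close, so their order there depends on the lengths used.

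**Figure D1:**
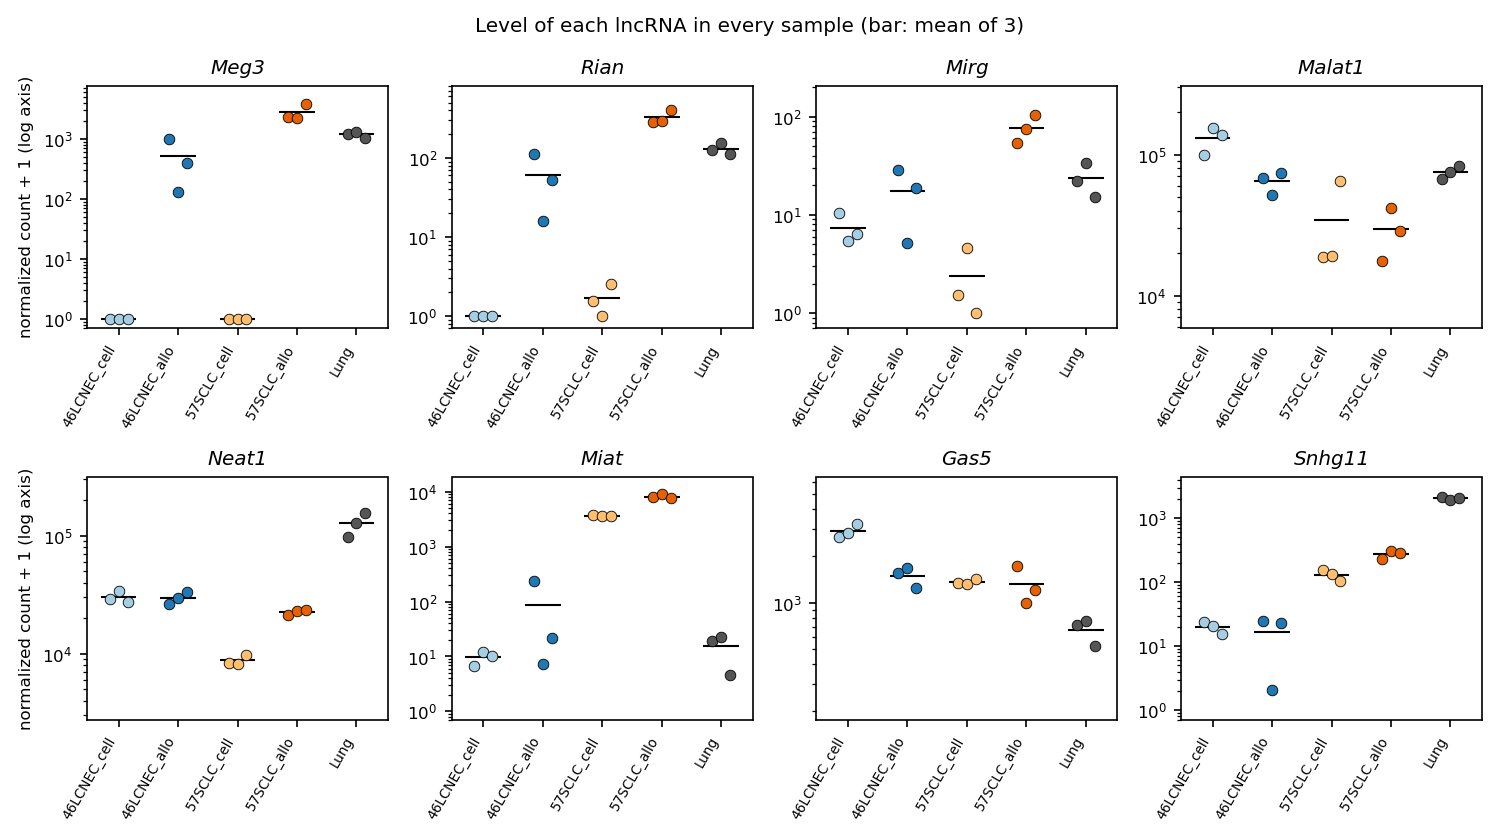
Normalized count + 1 (log axis) of each of the 8 lncRNAs in every sample, by group; points are samples and bars are means of 3 samples. The 6 cultured samples of both lines sit at 0 for Meg3, and Miat is at or above 3541 in the 6 samples of 57SCLC and at or below 233 in the other 9.

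Between the lines in culture, 5 of the 5 lncRNAs tested were called, 2 higher and 3 lower in 57SCLC_cell, beside 46.1% of 16920 genes tested (23.9% higher, 22.2% lower). Between the allografts, 2 of 8 were called, both higher in 57SCLC_allo, beside 30.4% of 17502 genes (16.1% higher, 14.2% lower). Against Lung, 3 of 8 were called in 46LCNEC_allo, 1 higher and 2 lower, beside 35.6% of 18033 genes (13.4% higher, 22.1% lower). In 57SCLC_allo 7 of 8 were called, 4 higher and 3 lower, beside 45.8% of 18517 genes (18.9% higher, 26.9% lower). The cultured cells differed from Lung in 6 of 8 for 46LCNEC_cell, 1 higher and 5 lower, beside 55.6% of 18142 genes (20.6% higher, 35% lower). For 57SCLC_cell the count was 7 of 8, 2 higher and 5 lower, beside 53.8% of 18467 genes (21.1% higher, 32.7% lower). From culture to allograft, 2 of 7 were higher and 0 lower in 46LCNEC_allo, where 22.8% of 16375 genes were called, 14.4% higher and 8.45% lower. In 57SCLC_allo over 57SCLC_cell, 6 of 8 were higher and 0 lower, where 16.6% of 17078 genes were called, 14.4% higher and 2.29% lower. With so few members, the counts of 2 of 8 between the allografts, 3 of 8 in 46LCNEC_allo over Lung and 2 of 7 in 46LCNEC_allo over 46LCNEC_cell lie near the share of all genes. The 6 of 8 in 57SCLC_allo over 57SCLC_cell lies furthest above it. Of these 6, Meg3, Rian and Mirg are neighbors in 1 domain with correlated levels (r of 0.84 to 0.99 over the 15 samples). They passed the filter there only through the allografts, so the 6 are not separate events. Meg3 and Rian, the 2 called in 46LCNEC_allo over 46LCNEC_cell, also passed it only through the allografts. In both comparisons of cultured cells with Lung, Meg3, Rian and Mirg passed it only through Lung. The direction of these calls was thus fixed by the filter. Comparisons that share Lung or a cell line share those samples and are not independent of each other.

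**Figure D2:**
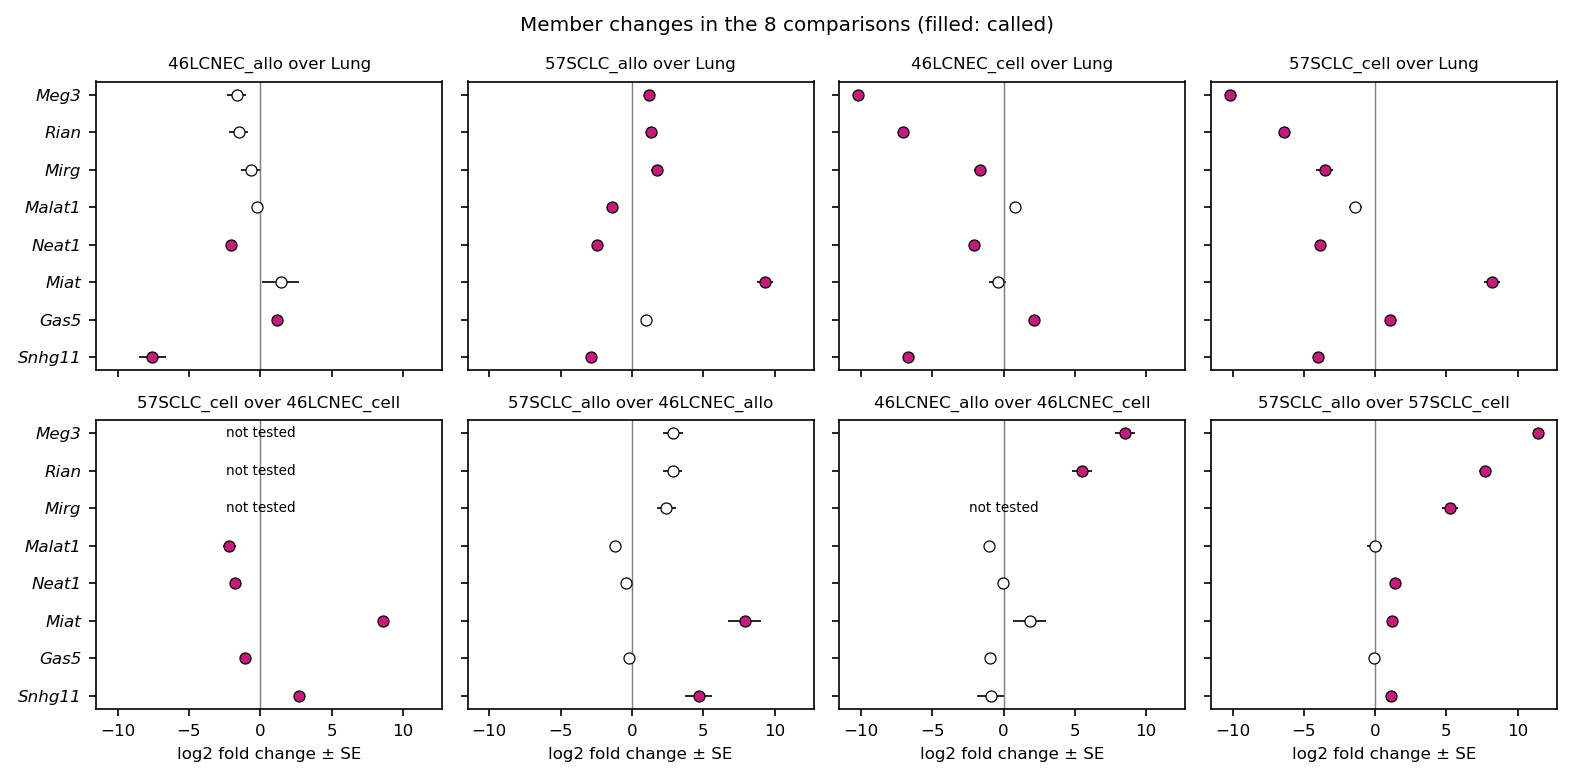
Log2 fold change on the log2(normalized count + 1) scale, with its standard error, for each lncRNA in the 8 comparisons of groups; filled points were called and lncRNAs too low to test are marked. In 57SCLC_allo over 57SCLC_cell the 6 filled points lie to the right of 0, and Miat lies to the right of 7 in the 4 comparisons of a 57SCLC group with Lung or with 46LCNEC.

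Meg3, the first maternal transcript of the domain, was listed at 0 reads in all 6 cultured samples and was present in all 9 tissue samples. In 46LCNEC_allo it measured 1008 normalized counts in tumor 312, 127 in tumor 319 and 396 in tumor 321. In 57SCLC_allo it measured 2262 in tumor 275, 2248 in tumor 316 and 3779 in tumor 317. Lung gave 1188, 1318 and 1032 in CT3, CT4 and CT5, so the 57SCLC tumors were above all 3 lungs and the 46LCNEC tumors below them, without overlap. Taking 3 reads per library as the floor for the cultured cells, Meg3 was at least 182-fold higher in 46LCNEC_allo than in 46LCNEC_cell and at least 1655-fold higher in 57SCLC_allo than in 57SCLC_cell. The bound of 46LCNEC_allo was 93.1-fold without tumor 312. Lung was at least 420-fold higher than 46LCNEC_cell and at least 707-fold higher than 57SCLC_cell. All of these differences were called (limma adjusted p = 0.000104, 1.53e-07, 1.03e-09 and 1.19e-08, respectively). Meg3 entered each of these tests only through the tissue group, so a call could not have gone the other way.

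The allografts differed from Lung in opposite directions for Meg3. In 57SCLC_allo it was higher than in Lung by 1.19 ± 0.21 (log2, SE, limma adjusted p = 0.00105). The log2 value was 0.94 without tumor 317, under the required fold of 2, and in 1 model of all 15 samples the adjusted p was 0.0525. In 46LCNEC_allo the log2 fold change over Lung was -1.66 ± 0.69 and was not called (adjusted p = 0.0732). Without tumor 312 it was -2.38 (adjusted p = 0.0088). Between the allografts the log2 fold change was 2.85 ± 0.70 (adjusted p = 0.0123), not called. It passed without tumor 312 (3.57, adjusted p = 0.00292) or without tumor 319 (2.08, adjusted p = 0.00942), with DESeq2 (2.46, adjusted p = 0.000175), with scaling to the same total (3.11, adjusted p = 0.00768) and in 1 model of all 15 samples (adjusted p = 0.000222).

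In the tissue samples Rian followed Meg3 closely at a lower level, though tumors 275 and 316 changed places. It was listed at 0 reads in the 3 dishes of 46LCNEC_cell and at 1, 0 and 3 reads in flasks A, B and C of 57SCLC_cell, which is at or under the floor. The 46LCNEC tumors measured 111, 14.7 and 50.9 normalized counts (312, 319 and 321), the 57SCLC tumors 287, 296 and 405 (275, 316 and 317), and Lung 126, 154 and 111. The group order was that of Meg3, except that tumor 312 reached the lowest lung. Rian was at least 21.0-fold higher in 46LCNEC_allo than in 46LCNEC_cell (limma adjusted p = 0.000773), a bound of 11.7-fold without tumor 312. In 57SCLC the ratio of allograft to cells was 463, from 686 reads against 4 (limma adjusted p = 1.96e-06), with an exact 95% interval of 180 to 1703 that covers counting error only. In 57SCLC_allo it was higher than in Lung by 1.33 ± 0.20 (log2, SE, adjusted p = 0.000516), a call that ended in 1 model of all 15 samples (adjusted p = 0.0446). Between the allografts its log2 fold change was 2.86 ± 0.68 (adjusted p = 0.0109), not called. It passed without tumor 312 (3.51, adjusted p = 0.00374) or without tumor 319 (2.10, adjusted p = 0.00543), with a pseudocount of 5 (2.71, adjusted p = 0.00813), with DESeq2 (2.52, adjusted p = 0.00019), with scaling to the same total (3.11, adjusted p = 0.00687) and in 1 model of all 15 samples (adjusted p = 0.000394). In the 9 tissue samples the ratio of Meg3 to Rian reads stayed between 7.60 and 9.41, with a median of 8.64, while the Meg3 level itself ranged from 127 to 3779.

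Mirg, the microRNA host at the far end, was the lowest of the 3. It had 10, 4 and 7 reads in dishes A, B and C of 46LCNEC_cell and 1, 6 and 0 reads in flasks A, B and C of 57SCLC_cell. The 46LCNEC tumors gave 27.8, 4.21 and 17.7 normalized counts (312, 319 and 321), a range that overlaps the cultured cells and Lung, at 20.9, 32.9 and 14. The 57SCLC tumors gave 52.7, 73.6 and 102 (275, 316 and 317), all above the other samples. The rise from 57SCLC_cell to 57SCLC_allo was 5.27 ± 0.57 (log2, SE, limma adjusted p = 0.000162). Mirg was also higher in 57SCLC_allo than in Lung, by 1.74 ± 0.39 (adjusted p = 0.00441), but this call ended without CT3, CT5, tumor 316 or tumor 317 (log2 1.72, 1.45, 1.73 and 1.5, adjusted p = 0.0184, 0.0157, 0.0136 and 0.0199) and in 1 model of all samples (adjusted p = 0.0272). Between the allografts it gave 2.40 (adjusted p = 0.0206), not called, and passed with DESeq2 (2.25, adjusted p = 0.00349) and in 1 model of all samples (adjusted p = 0.00483). Its lower level in 46LCNEC_cell than in Lung (-1.65 ± 0.39, adjusted p = 0.00336) likewise ended without CT3, CT4, dish B or dish C (log2 -1.67, -1.35, -1.46 and -1.58, adjusted p between 0.014 and 0.0166). DESeq2 gave this difference an adjusted p of 0.0107, and 1 model of all samples gave 0.0303. Mirg had at most 90 reads in any library, and the ratio of Meg3 to Mirg ranged from 22.4 to 73.5 over the tissue samples, wider than that of Meg3 to Rian.

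**Figure D3:**
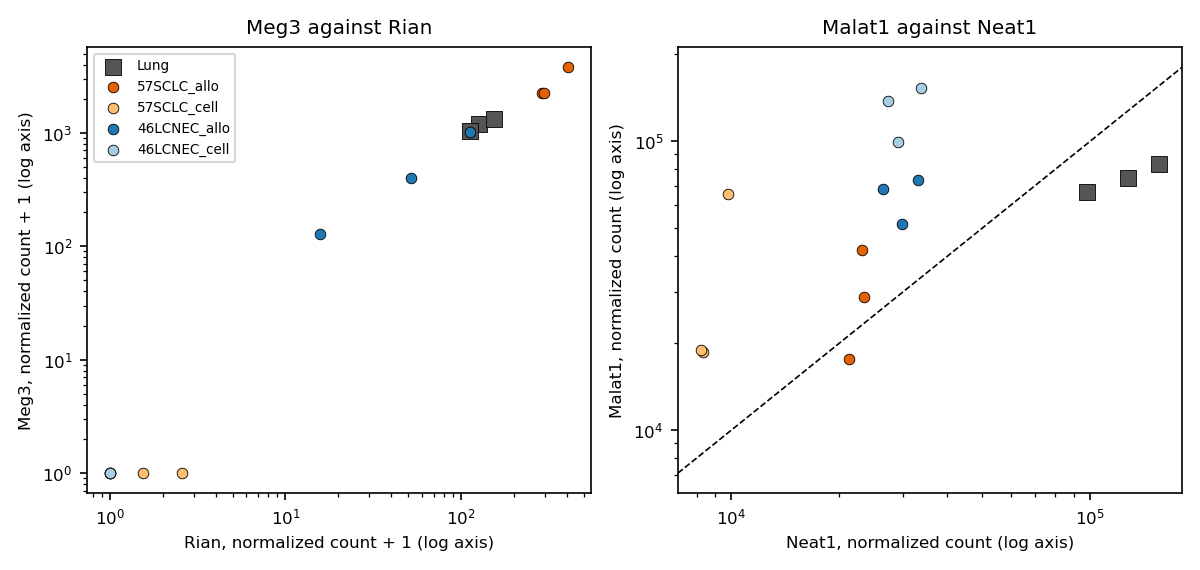
Left: Meg3 against Rian, normalized count + 1 on log axes, for the 15 samples; the 9 tissue samples fall on a line and the cultured samples sit at or near 0. Right: Malat1 against Neat1, normalized counts on log axes with the line of equal counts; the 3 Lung samples and tumor 275 lie under it.

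The interaction test asked whether the difference between the lines changed from culture to allograft. Of the 8 lncRNAs 2 were called, both upward, beside 17.5% of 18440 genes (10.8% upward, 6.78% downward). Mirg was one of them, at 4.28 ± 0.96 (log2, SE, limma adjusted p = 0.00449), a call that ended with a pseudocount of 0.1, with edgeR and when any 1 of 6 samples was left out. Meg3 gave 2.85 ± 0.80 (adjusted p = 0.0156) and was not called, but passed without tumor 312 (3.57, adjusted p = 0.00102), with scaling to the same total (3.11, adjusted p = 0.00922) and in 1 model of all 15 samples (adjusted p = 0.00662). With 0 reads of Meg3 in every culture, this value is the difference between the allografts again, 2.85 in both. It cannot tell whether the lines differed in culture. Rian gave 2.19 ± 0.85 (adjusted p = 0.0612) and was not called. As the cultured cells were at or near 0 reads, these fitted values depend on the pseudocount and set no bound.

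Of the 7 other genes of the domain and its flanks, 3 rose and 1 fell in 46LCNEC_allo over 46LCNEC_cell (7 tested, median log2 0.50, all genes -0.000694), and 3 rose and 0 fell in 57SCLC_allo over 57SCLC_cell (6 tested, median 0.72, all genes 0.00). Dio3, a deiodinase that inactivates thyroid hormone, was higher in both allografts. It measured 2.30 ± 1.35 normalized counts in 46LCNEC_cell and 35.8 ± 13 in 46LCNEC_allo, 0.893 ± 0.828 in 57SCLC_cell and 130 ± 57.8 in 57SCLC_allo (SD, n = 3). Rtl1, a retrotransposon-derived gene on the strand opposite to Rian, rose in both as well, from 2.81 ± 0.50 to 12.8 ± 1.76 and from 4.70 ± 3.73 to 31.5 ± 10.9. Dlk1, a Notch ligand-like membrane protein, did the opposite in 46LCNEC. Its level was 405, 457 and 421 in the dishes of 46LCNEC_cell and 99.3, 107 and 140 in the tumors (log2 -1.89 ± 0.19, limma adjusted p = 0.000226). In 57SCLC_cell Dlk1 had at most 1 read, and the tumors measured 9.58, 34.0 and 28.4. So the dishes of 46LCNEC held Dlk1 at its highest level in the series and Meg3 at 0 reads.

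Leukocyte and fibroblast marker sums were higher in the allografts than in the cultures of both lines, as were Meg3 and Rian. Each of the 5 leukocyte markers exceeded 3 reads in at least 1 tumor of either allograft group, while Cd3e, of T cells, was at 0 reads in every culture. The fibroblast markers (Col1a1, Col1a2, Dcn, Pdgfra and Lum) summed to between 22.4 and 27.8 in 57SCLC_cell and to 36939, 30593 and 48039 in tumors 275, 316 and 317. In 46LCNEC they summed to between 67855 and 78009 in the dishes and to 666389, 399596 and 297715 in tumors 312, 319 and 321. The dishes were above Lung (18074 to 22693), so in 46LCNEC this sum is not specific to host cells. The endothelial sum was 397 to 489 in 46LCNEC_cell and 4854 to 8562 in 46LCNEC_allo. In 57SCLC_cell it was already 7142 to 7813, beside 9985 to 10710 in 57SCLC_allo. The fat and muscle sum overlapped between culture and allograft in both lines. Between the allograft groups, 57SCLC_allo had the higher Meg3 and the lower fibroblast and leukocyte sums. Within 57SCLC_allo the tumors ranked the same way by Meg3, by the fibroblast sum and by the leukocyte sum (11215, 8717 and 14507 in tumors 275, 316 and 317), with tumor 317 highest and tumor 316 lowest. Tumors 275 and 316 were close in Meg3, at 2262 and 2248 normalized counts. By Rian (287 and 296) and Mirg (52.7 and 73.6) tumor 275 was lowest instead, so the 3 transcripts did not share this ranking. Within 46LCNEC_allo tumor 312 was highest in Meg3 and in the fibroblast sum, and tumor 321 in the leukocyte sum. The part of host cells in the levels of Meg3, Rian and Mirg was not tested.

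Malat1 (chr19:5845717-5853602, minus strand, GRCm39) lies 21133 bases from Neat1 (chr19:5874736-5897132, minus strand). Malat1 measured 99686, 153112 and 137243 normalized counts in dishes A, B and C of 46LCNEC_cell. In 57SCLC_cell it measured 18688 and 18993 in flasks A and B and 65437 in flask C. Flask C thus stood apart from the other flasks, and it was within the range of the 46LCNEC tumors, at 68522, 51716 and 73630 (312, 319 and 321). The 57SCLC tumors gave 17554, 42117 and 28815 (275, 316 and 317) and Lung gave 66885, 74732 and 83359. The dishes of 46LCNEC_cell were above all other samples, without overlap.

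Between the lines in culture, Malat1 was lower in 57SCLC_cell by a log2 fold change of -2.16 ± 0.47 (SE, limma adjusted p = 0.00312). This call ended when any library but flask C was left out: without flask A or B (-1.86 and -1.87, adjusted p = 0.0109 and 0.0124) and without dish A, B or C (-2.34, -2.04 and -2.11, adjusted p = 0.011, 0.0159 and 0.0175). Against Lung, 57SCLC_cell gave -1.39 ± 0.46 (adjusted p = 0.0239), not called, and passed without flask C (-1.99, adjusted p = 3.68e-06) and in 1 model of all 15 samples (adjusted p = 0.00722). In 57SCLC_allo Malat1 was lower than in Lung (-1.43 ± 0.30, adjusted p = 0.00286), a call that ended without CT4, CT5 or tumor 317 (-1.43, -1.35 and -1.46, adjusted p = 0.0127, 0.0130 and 0.0106). The higher level of 46LCNEC_cell over Lung, at 0.78 ± 0.19 (adjusted p = 0.00386), was under the required fold of 2. From culture to allograft Malat1 gave -1.0 ± 0.24 in 46LCNEC (adjusted p = 0.0116), which passed without tumor 321 (-1.10, adjusted p = 0.00956), with DESeq2 (adjusted p = 1.38e-05) and with scaling to the same total (adjusted p = 0.00754), and -0.04 ± 0.50 in 57SCLC (adjusted p = 0.955). Without flask C the latter was 0.56 (adjusted p = 0.186).

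Neat1 differed from Malat1 in its order of groups. Lung was highest, at 97871, 127306 and 155567 normalized counts in CT3, CT4 and CT5. The dishes of 46LCNEC_cell gave 29108, 33821 and 27302 and the tumors of 46LCNEC_allo 26403, 29834 and 33128, 2 groups that overlapped. The flasks of 57SCLC_cell were lowest, at 8320, 8219 and 9774, with flask C close to the others. The 57SCLC tumors lay between these flasks and the 46LCNEC samples, at 21326, 23098 and 23398.

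Both lines and both allografts had less Neat1 than Lung. The log2 fold change over Lung was -2.07 ± 0.23 in 46LCNEC_allo (SE, limma adjusted p = 0.000377), -2.46 ± 0.19 in 57SCLC_allo (adjusted p = 9.88e-06), -2.06 ± 0.18 in 46LCNEC_cell (adjusted p = 4.42e-06) and -3.83 ± 0.18 in 57SCLC_cell (adjusted p = 4.74e-07). These comparisons share the Lung samples. In culture Neat1 was lower in 57SCLC than in 46LCNEC by -1.78 ± 0.11 (adjusted p = 2.5e-06). It rose from 57SCLC_cell to 57SCLC_allo by 1.37 ± 0.10 (adjusted p = 1.98e-05), while 46LCNEC_allo over 46LCNEC_cell gave -0.01 ± 0.15 (adjusted p = 0.944). The difference between these changes was called (interaction 1.38 ± 0.17, adjusted p = 6.95e-05). Between the allografts the difference, -0.39 ± 0.14, was not called (adjusted p = 0.0506).

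The ratio of Malat1 to Neat1 counts was below 1 in every lung, at 0.602 ± 0.075 (SD, n = 3), and above 1 in every cultured sample, at 4.33 ± 0.82 in 46LCNEC_cell and 3.75 ± 2.55 in 57SCLC_cell. The 57SCLC ratio was 2.25 and 2.31 in flasks A and B and 6.70 in flask C. The means of the allografts were between, at 2.18 ± 0.43 in 46LCNEC_allo and 1.29 ± 0.50 in 57SCLC_allo. Single samples overlapped: tumor 312 (2.60) was above flasks A and B, and tumor 275 (0.823) was below 1. The libraries were poly-A selected, and Malat1 and the long isoform of Neat1 end in A-rich stretches encoded in the genome rather than in an ordinary poly-A tail. How selection weighs on these levels was not tested.

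Of 10 paraspeckle proteins, 9 could be tested. None was called lower and 5 were higher in 57SCLC_cell over Lung (median log2 1.04, all genes -0.12), 4 in 57SCLC_allo (0.97, all genes -0.09), 3 in 46LCNEC_cell (0.73, all genes -0.23) and 1 in 46LCNEC_allo (0.45, all genes -0.14). Sfpq, a core paraspeckle protein, measured 6013 ± 571 normalized counts in Lung and 20536 ± 2010 in 57SCLC_cell (SD, n = 3). Its partner Nono measured 1933 ± 110 in Lung and 6151 ± 72.1 in 57SCLC_cell. Lung, with the highest Neat1, thus had the lowest Sfpq and Nono. Of 5 nuclear speckle proteins 4 could be tested, and over Lung 1 call was made, Srsf1 higher in 57SCLC_cell (log2 1.07). Srsf2, a splicing factor of every cell, and Rbm14 were listed at or near 0 in all samples, so a value of 0 in this matrix does not by itself show that a gene was silent.

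Miat separated the lines. In 46LCNEC_cell it measured 5.63, 11 and 9.23 normalized counts (6, 10 and 12 reads in dishes A, B and C), and in 57SCLC_cell 3702, 3591 and 3541 in flasks A, B and C. The 57SCLC tumors reached 7842, 9020 and 7512 (275, 316 and 317), and Lung 17.9, 21.9 and 3.51. The 46LCNEC tumors spread widely, at 233 in tumor 312, 6.32 in tumor 319 and 21.0 in tumor 321. From 46LCNEC_cell to 46LCNEC_allo the log2 value was 1.84 ± 1.15 (limma adjusted p = 0.214), and DESeq2 gave 3.34 (adjusted p = 0.00665). The log2 fold change between the lines was 8.59 ± 0.22 in culture (SE, limma adjusted p = 1.96e-08) and 7.92 ± 1.15 in the allografts (adjusted p = 0.00125). It rose from 57SCLC_cell to 57SCLC_allo by 1.17 ± 0.09 (adjusted p = 2.23e-05), a call that ended in 1 model of all 15 samples (adjusted p = 0.359).

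Against Lung, Miat was higher by 8.17 ± 0.56 in 57SCLC_cell (log2, SE, limma adjusted p = 4.21e-06) and by 9.34 ± 0.56 in 57SCLC_allo (adjusted p = 2.51e-06). Neither 46LCNEC group passed the test against Lung: the cells gave -0.42 ± 0.59 (adjusted p = 0.52) and the allografts 1.42 ± 1.32 (adjusted p = 0.379). Tumor 312, with 176 reads of Miat against 6 and 19 in the other tumors, also had the highest summed neuronal markers of its group, 111 against 42.1 and 77.4 normalized counts in tumors 319 and 321. Its fat and muscle sum was highest too, at 195 against 37.9 and 2.21, as were its fibroblast sum and its endothelial sum (8562 against 4854 and 7383), while its neuroendocrine sum was 27.8 against 15.8 and 42.0. Their part in the Miat level of this tumor was not tested.

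Among the proteins reported to bind Miat, Celf3, an RNA-binding splicing factor of neurons, went with Miat. It measured 3009 ± 545 normalized counts in 57SCLC_cell and 4825 ± 277 in 57SCLC_allo, against 106 ± 10.9 in 46LCNEC_cell, 77.8 ± 27.6 in 46LCNEC_allo and 78.7 ± 11.5 in Lung (SD, n = 3). The log2 fold change between the lines was 4.81 ± 0.15 in culture (limma adjusted p = 5.49e-08) and 5.99 ± 0.24 in the allografts (adjusted p = 9.54e-06). Qk, the quaking RNA-binding protein, went the other way between the lines, though in 57SCLC_allo it was above 57SCLC_cell, as Miat was (2466 ± 91.2 normalized counts). It measured 14987 ± 620 in Lung, 7815 ± 749 in 46LCNEC_cell and 1061 ± 13.4 in 57SCLC_cell, and was lower in 57SCLC than in 46LCNEC both in culture (log2 -2.88 ± 0.08, adjusted p = 3.27e-08) and in the allografts (-1.59 ± 0.16, adjusted p = 0.000256). Sf1, the branch point binding protein, was not called in any comparison, with log2 values between -0.81 and 0.91.

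Of 7 other neural lncRNAs, 4 could be tested in culture, 3 of them higher and 1 lower in 57SCLC_cell than in 46LCNEC_cell (median log2 1.90, all genes 0.00). Rmst, which acts in neurogenesis, measured 426 ± 177 normalized counts in 57SCLC_cell and 23.0 ± 6.76 in 46LCNEC_cell (SD, n = 3). Neuronal markers (Elavl3, Elavl4, Snap25, Tubb3, Stmn2 and Rbfox3) summed to between 16512 and 20221 in the 57SCLC samples, between 38.4 and 111 in the 46LCNEC samples and between 1497 and 1726 in Lung. In Lung 1 marker, Stmn2, made up most of the sum, at 1401 ± 154 against 53.3 ± 22.5 in 57SCLC_cell and 9.76 ± 3.83 in 57SCLC_allo (SD, n = 3). Elavl3 was at 4.33 ± 2.83 in Lung and 15.2 ± 0.91 in 46LCNEC_cell, and Tubb3 was listed at 0 in all 15 samples.

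Snhg11 (chr2:158217558-158228071, plus strand, GRCm39), which hosts 2 annotated snoRNAs, had its highest level in Lung. CT3, CT4 and CT5 gave 2161, 1888 and 2059 normalized counts. The flasks of 57SCLC_cell gave 151, 131 and 103 (A, B and C) and the tumors of 57SCLC_allo 232, 307 and 284 (275, 316 and 317). In 46LCNEC_cell it measured 22.5, 19.9 and 14.6, and in 46LCNEC_allo 23.8, 1.05 and 22.1, where tumor 319 had 1 read. Lung was above 57SCLC_allo, 57SCLC_allo above 57SCLC_cell and 57SCLC_cell above both 46LCNEC groups, all without overlap.

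Snhg11 was lower than in Lung in every comparison, by a log2 fold change of -6.69 ± 0.18 in 46LCNEC_cell (SE, limma adjusted p = 2.47e-09), -7.59 ± 0.94 in 46LCNEC_allo (adjusted p = 0.000596), -3.99 ± 0.15 in 57SCLC_cell (adjusted p = 1.56e-07) and -2.89 ± 0.12 in 57SCLC_allo (adjusted p = 4.81e-07). Between the lines it was higher in 57SCLC by 2.70 ± 0.24 in culture (adjusted p = 1.76e-05) and by 4.69 ± 0.95 in the allografts (adjusted p = 0.00553). The latter call ended without tumor 275, 316 or 317 (4.81, 4.61 and 4.67, adjusted p = 0.0229, 0.0259 and 0.0241) and with a pseudocount of 0.1 (adjusted p = 0.0115). The rise from 57SCLC_cell to 57SCLC_allo, 1.10 ± 0.19 (adjusted p = 0.00249), ended without flask C (0.95, under the required fold), without tumor 316 (1.01, adjusted p = 0.0136) or without tumor 317 (1.07, adjusted p = 0.0166), and in 1 model of all samples (adjusted p = 0.235). The lung libraries also held the highest alveolar sums (Sftpc, Sftpb, Sftpa1, Ager and Hopx), between 216600 and 290170 normalized counts against at most 2516 in the other samples, and the part of the lung's own cell types in its Snhg11 level was not tested.

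Gas5 (chr1:160861793-160866118, plus strand, GRCm39), with 10 annotated snoRNAs inside it, had group means between 669 ± 125 in Lung and 2899 ± 280 in 46LCNEC_cell (SD, n = 3). It measured 2665, 2822 and 3209 normalized counts in the dishes of 46LCNEC_cell and 1560, 1668 and 1236 in tumors 312, 319 and 321. The flasks of 57SCLC_cell gave 1331, 1319 and 1431 and tumors 275, 316 and 317 gave 1731, 995 and 1209, a range that holds the flasks. Lung was lowest, at 716, 763 and 527 in CT3, CT4 and CT5, below all 12 samples of the lines and their allografts.

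Over Lung, Gas5 was higher by 2.13 ± 0.14 in 46LCNEC_cell (log2, SE, limma adjusted p = 6.37e-07), 1.16 ± 0.19 in 46LCNEC_allo (adjusted p = 0.00184) and 1.04 ± 0.14 in 57SCLC_cell (adjusted p = 0.000255). Without CT5 the last 2 were 0.997, just under the required fold, and 0.88, and neither was called. In 57SCLC_allo the value was 0.95 ± 0.22 (adjusted p = 0.00501), not called for its size, and it passed with edgeR, DESeq2 and the other scalings (log2 between 1.02 and 1.16) and without tumor 316 (1.13, adjusted p = 0.00236). Between the lines in culture Gas5 was lower in 57SCLC_cell by -1.09 ± 0.09 (adjusted p = 1.02e-05), or -0.86 and not called when libraries were scaled to the same total, where the median of all genes was 0.23. The fall from 46LCNEC_cell to 46LCNEC_allo, -0.97 ± 0.14 (adjusted p = 0.00125), was under the required fold and passed without dish A, tumor 312 or tumor 319 (-1.03, -1.01 and -1.06) and with scaling to the same total (-1.02). In 57SCLC the change was -0.09 ± 0.18 (adjusted p = 0.725).

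Other snoRNA host genes showed where Gas5 and Snhg11 stood among their kind. Of 18 on the list, 15 could be tested in culture, and 10 were lower and 0 higher in 57SCLC_cell than in 46LCNEC_cell (median log2 -1.36, all genes 0.00). Gas5 was lower with them and Snhg11 was higher. In 46LCNEC_cell over Lung 10 were higher and 1 lower (median 1.52, all genes -0.23), Gas5 again being with them and Snhg11 on the other side. From 46LCNEC_cell to 46LCNEC_allo 7 fell and 1 rose (median -0.66, all genes -0.000694), and from 57SCLC_cell to 57SCLC_allo 1 rose and 0 fell (median 0.25, all genes 0.00). Snhg1 measured 2498 ± 334 normalized counts in 46LCNEC_cell and 795 ± 116 in 46LCNEC_allo, beside 958 ± 61.0 in 57SCLC_cell and 219 ± 37.9 in Lung (SD, n = 3). Snhg17 was at 3672 ± 370 in 46LCNEC_cell and 1141 ± 71.3 in 46LCNEC_allo. Snhg18 was the exception that rose in both allografts, and its 3 flasks of 57SCLC_cell were listed at 0 beside 112 ± 19.8 in 57SCLC_allo.

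**Figure D4:**
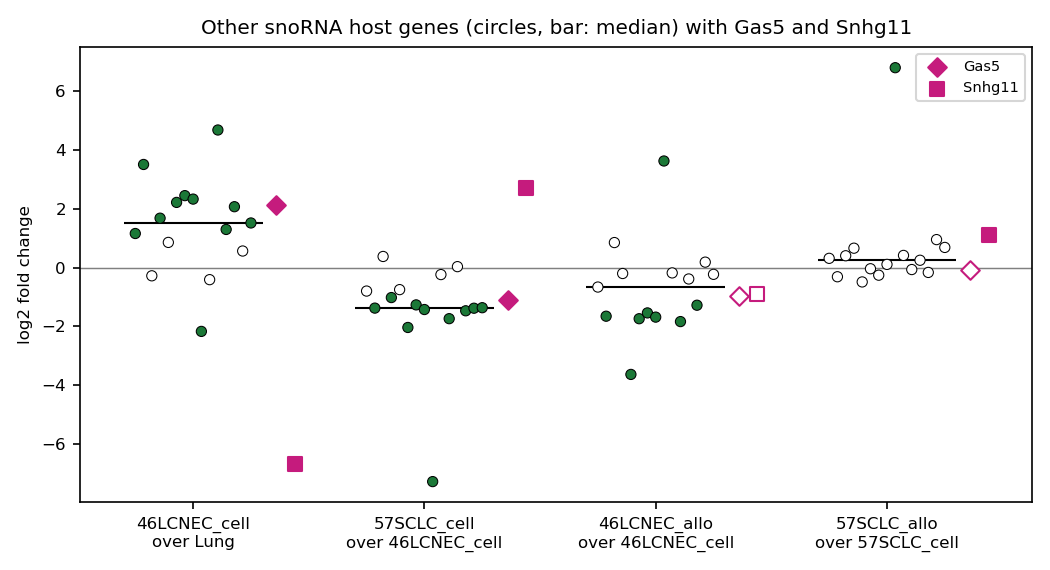
Log2 fold change of the other snoRNA host genes tested (circles, filled where called, bar at their median) with Gas5 (diamond) and Snhg11 (square) in 4 comparisons. Gas5 lies on the same side of 0 as the median of the other hosts in the first 3 comparisons, and Snhg11 on the opposite side in the first 2.

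For the pattern over all 15 samples, the genes most alike to each lncRNA were taken by Pearson's r of log2(normalized count + 1) among 19626 genes. Genes without a name and those with a Gm or Rik name were passed over, so such genes may rank higher. The points share libraries and depth, and the samples fall into 5 groups. Meg3 was closest to Rian (0.99), and outside the 8 to Abcg3 (0.98) and Mfap5 (0.98). Miat was closest to Jakmip3, Chga and Hcn2 (0.98 each), Chga being the chromogranin A of neuroendocrine granules. Gas5 was closest to Rpl3 (0.99), Hspd1 (0.98) and Rpl19 (0.98), genes of ribosomal proteins and of a mitochondrial chaperone. Snhg11 was closest to Faim2, Eml2 and Bcam (0.98 each), Neat1 to AU021092 (0.99), Malat1 to Apbb2 (0.96) and Mirg to Cln8 (0.92). Malat1 and Neat1 were only loosely alike (0.53), and Gas5 and Snhg11 ran in opposite directions (-0.79).

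Several of the 8 overlap a gene on the opposite strand, and whether the counting used strand was not given in the sources used here, so their reads may be shared with or lost to the partner. Gas5 shares 134 exon bases with Zbtb37, which reached at most 632 normalized counts. Miat shares 3433 exon bases with Gm26953, which did not exceed 12.7 normalized counts in any sample, and Neat1 shares 412 with Frmd8os, at most 69.1.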

How the data were processed

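RNA of 15 samples was analysed. The authors aligned 150-base read pairs to GRCm39 with Rbowtie2, ran featureCounts with GENCODE release 27 and scaled each library by its DESeq2 size factor, so the deposited values are a signal of normalized counts, not raw counts. Every value was a whole multiple of the smallest step of its sample (tolerance 0.01 reads), which gave back the reads; 3 reads were taken as the detection floor, which covers counting error only. Leaving samples out of the fold bounds, and the counting interval of Rian, were added after seeing the data. Depth ranged from 9480244 to 44876572 reads.

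limma 3.58.1 (R 4.3.3, mean-variance trend) was run on log2(normalized count + 1) over all genes that reached 10 normalized counts in 3 or more of the samples compared, so folds of low genes are understated. Calls needed a p of 0.01 or less after Benjamini-Hochberg adjustment and a fold of at least 2. The 8 comparisons used 6 samples each and the interaction 12. Alternatives were pseudocounts of 0.1 and 5, no filter, edgeR 4.0.16 and DESeq2 1.42.0 on the recovered reads, other scalings, a threshold of 0.05, all 15 samples, a replicate block and each sample left out. The procedures were tested on simulated data.

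The members and the gene lists were chosen with earlier results of these data known. All 8 members are named throughout, and genes of the lists as examples of their list. Host genes Snhg7 and lncRNA Lincpint were not analysed here, and results for some genes of the lists or beside the members are not reported here. Gene positions, exon lengths and overlaps came from GENCODE release 39 of the same build, and sequences from RefSeq tables (GRCm38.p6) matched to GRCm39 by a search for identical letters. Python 3.11.15 with numpy 2.4.6, pandas 2.3.3 and matplotlib 3.10.9 was used.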

Additional observations from a re-analysis of the deposited data

Results flagged for a closer look

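The difference between the lines, 57SCLC minus 46LCNEC, changed from culture to allograft beyond the test's threshold for 2 of the 8 lncRNAs, beside 17.5% of 18440 genes, so the count lies near the share of all genes. For Mirg the change was 4.28 (log2, limma adjusted p = 0.00449): it had at most 10 reads in each cultured sample and 52.7 to 102 normalized counts in the 57SCLC tumors, against 4.21 to 27.8 in the 46LCNEC tumors. The call ended without flask A (4.13, adjusted p = 0.0138), without flask C (3.81, adjusted p = 0.0117), without tumor 316 (4.28, adjusted p = 0.0113), without tumor 317 (4.05, adjusted p = 0.0141), without dish A (4.01, adjusted p = 0.0137) and without dish C (4.36, adjusted p = 0.0117), as well as with a pseudocount of 0.1 (5.82, adjusted p = 0.0140) and with edgeR on the recovered reads (4.44, adjusted p = 0.0109). For Neat1 the change was 1.38 (adjusted p = 6.95e-05), with 8219 to 9774 normalized counts in the 57SCLC flasks and 21326 to 23398 in the 57SCLC tumors, beside overlapping ranges in 46LCNEC.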

How the results depend on the processing

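Of 82 counts of called members under settings other than leaving out a sample, 72 stayed within 1.5 times of the count reported. In 57SCLC_allo over Lung the count was 4 in 1 model of all 15 samples. Between the allografts it was 1 with a pseudocount of 0.1, 5 with DESeq2, 4 with scaling to the same total, 6 at an adjusted p of at most 0.05 and 5 in 1 model of all 15 samples. In 46LCNEC_allo over 46LCNEC_cell it was 4 with DESeq2 and 4 with scaling to the same total, and for the interaction 1 with a pseudocount of 0.1 and 1 with edgeR. With each sample left out, the counts ranged from 4 to 7 (57SCLC_allo over Lung), 2 to 4 (46LCNEC_allo over Lung), 1 to 4 (between the allografts), 2 to 3 (46LCNEC_allo over 46LCNEC_cell) and 1 to 3 (interaction). The other comparisons ranged from 5 to 6 (46LCNEC_cell over Lung), 6 to 8 (57SCLC_cell over Lung), 4 to 5 (between the lines in culture) and 5 to 6 (57SCLC_allo over 57SCLC_cell).

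No called fold change reversed. Reversed signs among uncalled values were Gas5 between the allografts with scaling to the same total (0.053), Neat1 in 46LCNEC_allo over 46LCNEC_cell with edgeR (0.00378) and the upper quartile (0.012), and Rian in the interaction with edgeR (-0.41). Leaving out a sample took Mirg in 46LCNEC_allo over Lung from -1.18 to 0.0535 (above 0 without tumor 319), Miat in 46LCNEC_cell over Lung from -1.16 to 0.0156 (without CT4), Neat1 in 46LCNEC_allo over 46LCNEC_cell from -0.094 to 0.0733 (without dish B or tumor 312) and Snhg11 there from -1.52 to 0.282 (without tumor 319). In 57SCLC_allo over 57SCLC_cell it took Malat1 from -0.347 to 0.557 (above 0 without flask C or tumor 275) and Gas5 from -0.31 to 0.0893 (without tumor 316), and in the interaction Miat from -1.78 to 0.724 (without tumor 312). The cause was not tested.

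The letters A, B and C do not pair the cells of the lines: same-letter correlations of deviations were 0.09, -0.08 and -0.01. With the replicate block 5 members were called, the same number as without it, with 7797 calls over all genes against 7799. Scaling to the same total moved the split between the allografts from 2821 genes higher and 2491 lower to 3527 and 1969, with a median of all genes of 0.28 in place of 0.01. DESeq2 gave Miat no adjusted p between the allografts. Mirg, Rian and Meg3 had 10 reads or fewer in each culture, so differences between the lines there rest on few counts. The cultures were not shallow, at 24176296 to 44876572 reads, while tumor 275 held 945 reads of Meg3 among 9480244.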
